A study of Mus musculus with 11 samples.

Results

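Mouse prostate epithelial stem cells of the line WFU3 with hairpins against both Map3k7 and Chd1 (shDouble) were set against WFU3 cells with the same Chd1 hairpins alone (shChd1), to ask what knockdown of Map3k7 adds to knockdown of Chd1. These groups hold 6 of the 11 libraries of the series, chosen by their labels, 4 shDouble and 2 shChd1. Cells were first given a hairpin against Map3k7, or a non-targeting one, in a lentiviral vector that marks cells with green fluorescence, and single clones were picked. The clones then received Chd1 construct 96526 or 96528, or a control hairpin, in a lentiviral vector with puromycin resistance. The shDouble libraries are Map3k7 clone 1 with construct 96526 and with 96528 (both passage 49) and Map3k7 clone 7 with 96526 and with 96528 (both passage 48), and their values are given in that order. The shChd1 libraries are control clone 4 with 96526 (passage 52) and with 96528 (passage 50), in that order. Both shChd1 libraries thus come from 1 clone, and within these 6 libraries the Map3k7 hairpin and the difference of clones 1 and 7 from clone 4 cannot be told apart. The 5 libraries without a Chd1 hairpin serve as a reference: shMap3k7 in clone 1 (passage 49) and clone 7 (passage 47), and shControl in clone 4 and clone 5 (both passage 52) and in a further control line marked puro and neo (passage 30). No label states that the libraries of a group were grown as separate cultures, so p-values measure the spread between these samples, which may be technical.

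Map3k7 encodes TAK1, a kinase that carries signals from the receptors for interleukin 1, tumour necrosis factor, Toll-like receptor ligands and TGF-beta. With its TAB partners it activates the IKK complex, which frees NF-kB to enter the nucleus, and the kinases JNK and p38, which act on AP-1 factors. Chd1 encodes a chromatin remodelling ATPase found at active promoters, and loss of both genes occurs together in a subset of human prostate cancers.

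Between 14846114 and 23163709 expected counts were assigned to genes in the 6 libraries, and 3 counts in a library stand for 0.133 to 0.19 CPM (counts scaled to a common library size, with TMM scaling for composition). Across log2 CPM of the tested genes, the shDouble libraries of 1 clone correlated at 0.992 (clone 1) and 0.990 (clone 7), and each correlated at 0.985 to 0.992 with the shMap3k7 library of its clone. The shChd1 libraries correlated at 0.984 and 0.979 with the clone 4 control and at 0.885 to 0.901 with the shDouble libraries. Over the 500 most variable genes of the 6 libraries, 88.5% of the variance lay along an axis (the first principal component) that set shDouble (scores -30.28 to -42.1) apart from shChd1 (71.37 and 72.64). The second took 7.93% and separated clone 1 from clone 7. Markers of an epithelial line were abundant in the 6 libraries (Krt8, Krt18, Krt14, Cdh1 and Epcam, values below), while Pbsn, Nkx2-3 and Zbtb16, genes of the differentiated prostate, had 0 counts.

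Map3k7 mRNA was low in each shDouble library. Map3k7 (ENSMUSG00000028284.13, chromosome 4, 31964097 to 32023467 on GRCm38) stood at 41.7, 40.9, 42.2 and 39.3 CPM in shDouble and at 138 and 138 CPM in shChd1. The groups did not overlap, and the log2 fold change was -1.75 ± 0.08 (SE), adjusted p = 2.78e-06. The control libraries lay at 124 to 140 CPM. Chd1 (ENSMUSG00000023852.14, chromosome 17, 15704967 to 15772610) differed between 2 groups that both carry Chd1 hairpins. It stood at 198, 162, 194 and 190 CPM in shDouble and at 145 and 150 CPM in shChd1, against 195 to 212 CPM in shControl and 221 and 238 CPM in shMap3k7. Each shDouble library lay below both shMap3k7 libraries, but shDouble replicate 1 lay inside the range of the controls. The 2 groups did not overlap, and Chd1 was higher in shDouble by 0.33 ± 0.10 (adjusted p = 0.0199). The call ended with the line as a random block (adjusted p = 0.17) and without either shChd1 library. Every comparison below is therefore between cells whose Chd1 mRNA also differed.

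Similar numbers of genes were higher and lower in shDouble, and more of the falls than of the rises passed 2-fold. Of 14346 genes tested, 6426 (44.8%) passed an adjusted p of 0.05 in edgeR's quasi-likelihood test with Benjamini-Hochberg adjustment, here termed called. Of these, 3241 (22.6%) were higher and 3185 (22.2%) lower, a balance that turned with DESeq2's size factors (3116 and 3286). At least 2-fold changes were called in 2861 genes (19.9%), 1049 higher and 1812 lower. The ranges of the 2 groups did not overlap in 9135 genes (63.7%). The median log2 fold change of all tested genes was 0.01. The count of calls depends on whether libraries of 1 clone are taken as independent: with the line as a random block in limma voom, 3193 genes (22.3%) were called, and with counts summed per line 1569. Without shChd1 replicate 1 the count was 4187, and without replicate 2 it was 3649. Of 175 called genes examined singly, 144 kept call and direction with the line as a random block, and 109 kept their call with counts summed per line, where shChd1 is 1 sum. Without shChd1 replicate 1 the call was lost by 16, and without replicate 2 by 23. Most of the 175 were picked for a large change or a small p in this comparison, so they do not stand for all calls. Of all 6426 calls, 49.4% were kept with the random block. Losses with the random block or without a library are given beside the gene. Genes named below that kept their call with the random block but lost it with counts summed per line were Traf6, Chuk, Mapk13, Nfkb1, Nfkb2, Col16a1, Col5a3, Krt19, Ly6a, Krt14, Sgk1, Tmprss2, Hey2, Lrp6, Fzd8, Ereg, Igfbp5, Bnip3, Pgk1, Kif11, Mcm3, Plk1, Pmaip1, Mdm2, Fanca, Prkdc, Chd6, Scd1, Mt1, Mt2, Pdgfra, Tjp1, Tjp3, Ctnnb1, Col4a1, Col4a2, Vim, Fosl2 and Egr1.

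**Figure D1:**
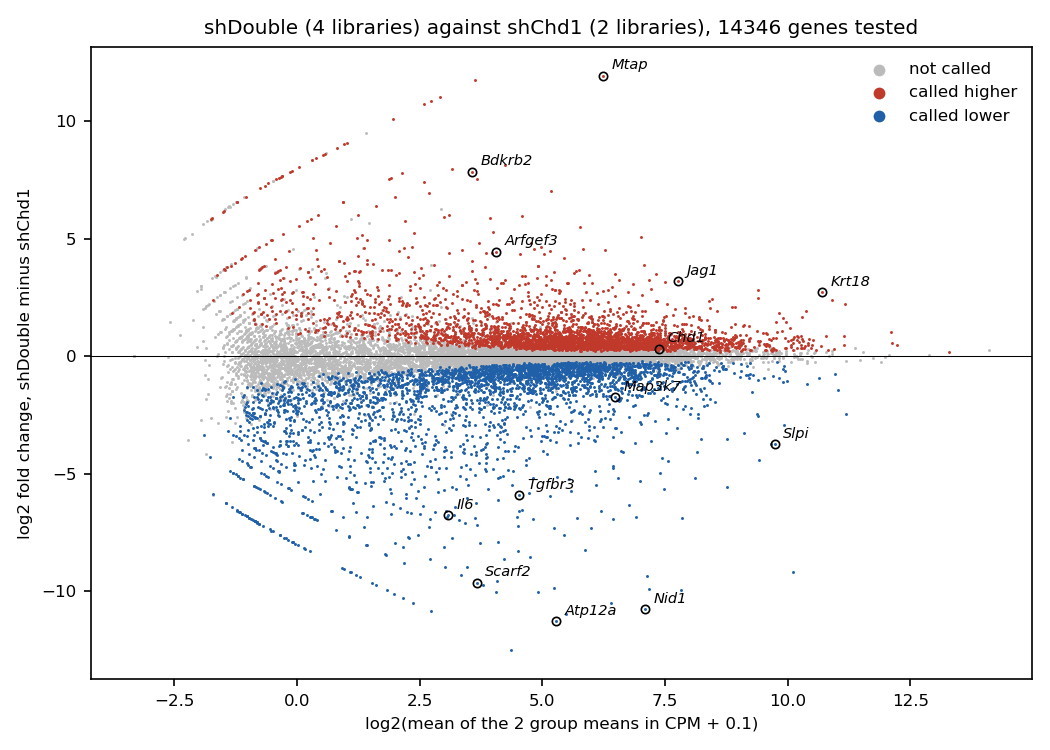
Each point is 1 of 14346 genes, with the mean level of both groups in log2(CPM + 0.1) on the x axis and the log2 fold change of shDouble minus shChd1 on the y axis. Red points are the 3241 genes called higher and blue points the 3185 called lower. Past 2-fold, the falls (1812) outnumber the rises (1049).

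The 2 Map3k7 clones gave like numbers of calls. Clone 1 alone differed from shChd1 in 6195 genes (3159 higher, 3036 lower) and clone 7 in 6266 (3174 higher, 3092 lower), in a model with a mean for each clone. Tested against each other, shDouble clone 1 and clone 7 differed in 0 genes (0%) with edgeR, with 2760 at an unadjusted p under 0.05, and in 585 genes with DESeq2. The interaction contrast set the difference of shDouble from shChd1 against that of shMap3k7 from shControl. It was called in 0 genes (0%) with edgeR, with 1998 at an unadjusted p under 0.05, and in 395 with DESeq2. Its shChd1 arm is clone 4 alone, while its shControl arm averages clone 4 with the other control lines. An effect of the Chd1 hairpins and the difference of clone 4 from the other controls therefore cannot be told apart in it.

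Libraries without a Chd1 hairpin, which share clones but no library with this comparison, moved the same way for most called genes. Of the 3241 genes called higher, 97.6% were also higher in shMap3k7 than in the clone 4 control, where 49.2% of all tested genes were. Against the other 2 controls 85.6% were higher, where 49.3% of all tested genes were. Of the 3185 called lower, 98% were lower in shMap3k7 than in the clone 4 control (50.8% of all tested genes) and 89.2% lower than in the mean of the other 2 (50.7%). The sizes differed with the control. The genes called higher had a median log2 difference of 0.74 in the comparison itself, 0.53 in shMap3k7 against the clone 4 control and 0.26 against the other 2 controls. The genes called lower had medians of -1.18, -0.87 and -0.48. The first value of each set is a fold change fitted by edgeR, on which the genes were also called. The others are differences of log2 CPM with a prior of 2 counts, which draws differences at low counts towards 0. The first value is therefore not on the same footing as the others. Both shMap3k7 libraries lay outside the range of the other 2 controls, on the same side, for 59.2% of the genes called higher and 64.3% of those called lower, against 24.8% and 26% of all tested genes.

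Some of the genes with the largest rises had little or no mRNA in clone 4 but were expressed in other control lines. Mtap, an enzyme of methionine salvage (chromosome 4, 89137122 to 89181081), stood at 204, 177, 124 and 97.3 CPM in shDouble and at 0.0622 and 0 CPM in shChd1, 12477 counts against 1. The ratio of pooled counts was 4946 (95% counting interval 888 to 195400; adjusted p = 0.00369, and 0.866 with the line as a random block, where the sign turned to -1.67). The clone 4 control had 0.259 CPM, but the other controls had 96.8 and 110 CPM. Cdkn2b, which encodes the CDK inhibitor p15 and lies beside Mtap (chromosome 4, 89306299 to 89311039), had 28.0, 28.2, 25.5 and 17.0 CPM in shDouble and 0 counts in both shChd1 libraries, at least 267-fold higher by 3 counts over the group (adjusted p = 0.00769, and 0.703 with the line as a random block). It was at 0 in the clone 4 control and at 16.2 and 25.7 CPM in the others. Cdkn2a (chromosome 4, 89274471 to 89294653), chosen after its values were seen, showed the same pattern at a low level, 1.15 to 1.81 CPM against 0 (at least 15.5-fold; adjusted p = 0.0262, and 0.486 with the line as a random block), with 0 in the clone 4 control and 3.81 and 0.935 CPM in the others. The calls of Cdkn2b and Cdkn2a ended without either shChd1 library. These 3 genes are neighbours, and clone 4 lacked their mRNA with and without a Chd1 hairpin.

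Other large rises differed between the Map3k7 clones or were matched by a control line. The zinc finger gene Zfp518b stood at 10.0 to 16.6 CPM in shDouble and 0 in shChd1 and the clone 4 control, but at 11.5 and 23.8 CPM in the other controls (at least 142-fold; adjusted p = 0.0126, and 0.761 with the line as a random block). Trim44, a tripartite motif protein, was high in clone 1 (26.6 and 27.4 CPM) and lower in clone 7 (2.71 and 2.91 CPM). In the controls (the line marked puro and neo, clone 4 and clone 5, in this order) it had 4.18, 0 and 0 CPM, and it had 0 counts in shChd1 (at least 172-fold; adjusted p = 0.0339, and 0.236 with the line as a random block). The growth factor relative Hdgfl3 had 30.7 and 33.8 CPM in clone 1 and 2.45 and 3.27 CPM in clone 7, with 9.74, 0.208 and 0 CPM in the controls, a pooled ratio of 304 (84 to 2510; adjusted p = 0.309 with the line as a random block). Gdf15, a stress-induced TGF-beta relative, had 13.3 and 12.9 CPM in clone 1 and 0.937 and 2.26 CPM in clone 7, with 2.31, 0 and 0.11 CPM in the controls, a ratio of 253 (45 to 9990; adjusted p = 0.247 with the line as a random block). Gpx2, a glutathione peroxidase, leaned the other way, with 15.3 and 19.5 CPM in clone 1 and 44.2 and 71.3 CPM in clone 7, against 0.187 and 0.0632 CPM in shChd1 and 4.74, 0.104 and 17.0 CPM in the controls (log2 fold change 8.15 ± 1.97; adjusted p = 0.305 with that block). All 5 were called in edgeR without that block, and their calls ended without either shChd1 library. Those of Trim44 and Hdgfl3 also ended without shDouble replicate 1 or 2.

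A further group of rises exceeded each control line. Cpa4, a carboxypeptidase, had 9.06, 4.59, 20.1 and 13.8 CPM in shDouble, 0 in shChd1 and 4.49, 0 and 0.715 CPM in the controls, and 17.4 and 8.91 CPM in shMap3k7 (at least 122-fold; adjusted p = 0.00704, and 0.338 with the line as a random block; the call also ended without shChd1 replicate 2). Bdkrb2, the bradykinin B2 receptor, stood at 22.99, 18.5, 31.1 and 21.3 CPM in shDouble, 0.124 and 0.0632 CPM in shChd1 and at most 3.46 CPM in a control, a pooled ratio of 248 (85 to 1205; adjusted p = 0.00027). Chrm3, a muscarinic acetylcholine receptor, had 17.6, 16.02, 6.72 and 6.95 CPM against 0.0622 and 0.0632 CPM (ratio 197, interval 54 to 1626; adjusted p = 0.000628), and Slain1, a microtubule regulator, had 11.3, 10.3, 3.64 and 3.03 CPM against 0 and 0.0632 CPM (ratio 239, interval 43 to 9442; adjusted p = 0.00151). Arfgef3, a large ARF exchange factor relative, had the smallest p of a rise. It stood at 32.5, 33.4, 28.9 and 31.8 CPM in shDouble, 1.31 and 1.58 CPM in shChd1 and 1.04 to 1.21 CPM in the controls, and at 31.2 and 32.2 CPM in shMap3k7 (log2 fold change 4.45 ± 0.16; adjusted p = 4.78e-07). Scn3a, a voltage-gated sodium channel, rose from 6.10 and 3.10 CPM to 96.0, 112, 130 and 99.1 CPM (4.57 ± 0.29; adjusted p = 1.27e-05), with 11.9 to 16.6 CPM in the controls. All 6 libraries of Map3k7 clones lay above all 5 others for Arfgef3 and Scn3a.

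Most of the largest falls ended near 0 in every shDouble library. Atp12a, a proton and potassium pump, was at 84.2 and 71.6 CPM in shChd1 and at 0.0442, 0, 0 and 0.0594 CPM in shDouble, 2 counts against 2485, a ratio of 3134 (interval 867 to 25890; adjusted p = 4.78e-07). The controls had 9.07 to 12.7 CPM and shMap3k7 had 0. Cacna1g, a T-type calcium channel, fell from 185 and 154 CPM to 0 to 0.221 CPM (-10.48 ± 0.79; adjusted p = 3.31e-05), with 14.7 to 72.3 CPM in the controls. Rnf150, a ring finger gene, went from 60.9 and 58.9 CPM to at most 0.0884 CPM (-10.05 ± 0.76), and Adgrg2, an adhesion G protein-coupled receptor, from 31.1 and 35.0 CPM to 2 counts in all (ratio 1328, interval 367 to 10980). Fcgrt, the neonatal Fc receptor, had 246 counts in shChd1 and 0 in shDouble (at least 207-fold lower), and Pilra, an inhibitory immune-type receptor, had 222 and 0 (at least 187-fold lower). Scarf2, a scavenger receptor, stood at 27.7 and 22.6 CPM in shChd1 and 11.9 to 22.2 CPM in the controls but had 2 counts in shDouble (ratio 1013, interval 280 to 8377; adjusted p = 7.74e-06). Slpi, a secreted protease inhibitor, fell from 1595 and 1581 CPM, with the controls at 1277 to 1627, to 94.2, 128, 140 and 114 CPM (-3.74 ± 0.21; adjusted p = 7.74e-06). For these 8 genes each library of a Map3k7 clone lay below each other library.

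For other large falls, control clone 5 was low as well. Col3a1, the type III collagen chain, had 91.0 and 87.2 CPM in shChd1 and 3 counts in shDouble (ratio 2389, interval 817 to 11590), with 34.0, 18.0 and 1.21 CPM in the controls (adjusted p = 0.000144, and 0.109 with the line as a random block). F5, coagulation factor V, had 19.3 and 6.70 CPM against 0 counts (at least 350-fold lower; adjusted p = 0.0617 with the line as a random block). Nid1, a basement membrane linker, stood at 258 and 287 CPM in shChd1 and 0 to 0.275 CPM in shDouble (-10.77 ± 1.83; adjusted p = 0.00118, and 0.644 with the line as a random block). Its controls had 236, 479 and 0.165 CPM, so control clone 5 lacked it too. Grb10, a growth factor receptor adaptor, and Runx3, a RUNX transcription factor, had 0 counts in shDouble and in control clone 5 (at least 269-fold and 234-fold lower than in shChd1; adjusted p = 0.272 and 0.304 with the line as a random block), and the call of Runx3 ended without shChd1 replicate 2. The pseudogene Rpl3-ps1, whose reads RSEM may share with Rpl3, had 450 and 453 CPM in shChd1, at most 0.535 CPM in shDouble and 0.44 CPM in control clone 5 (adjusted p = 0.492 with the line as a random block).

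**Figure D2:**
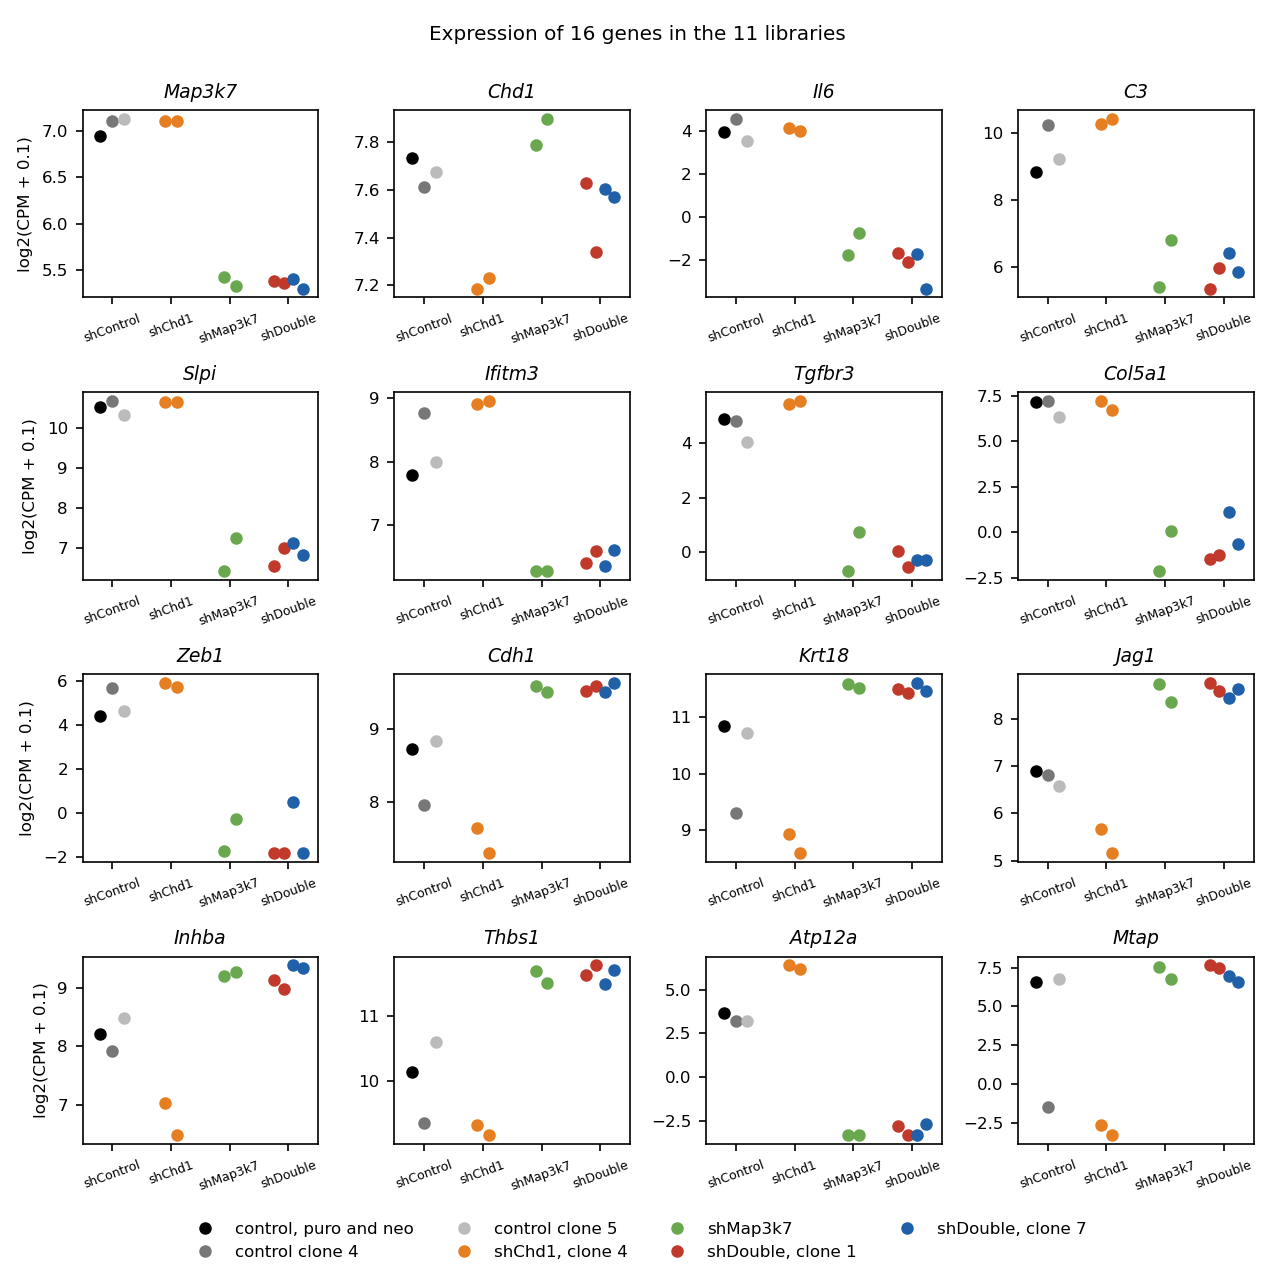
Each panel shows 1 gene in all 11 libraries as log2(CPM + 0.1), 1 point per library, by group, with clones by colour. Il6, Slpi, Tgfbr3 and Atp12a lie lower in all Map3k7 clones than in any other library, Jag1 and Cdh1 lie higher, and for Mtap the clone 4 control sits with shChd1.

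Of 12 receptors and adaptors upstream of TAK1, 1 was higher, 6 were lower and 5 were not called, with a median of -0.39. That is 58.3% called, against 44.8% of all tested genes (22.6% higher and 22.2% lower). Il1r1, the interleukin 1 receptor, stood at 16.4, 16.2, 9.16 and 9.57 CPM against 56.6 and 60.3 CPM (-2.18 ± 0.26; adjusted p = 0.000187). The Toll-like receptors Tlr4 (-1.36 ± 0.14) and Tlr2 (-1.94 ± 0.27) and the tumour necrosis factor receptor Tnfrsf1a (-0.58 ± 0.11) also fell. Traf6, the ubiquitin ligase that activates TAK1, rose from 31.8 and 33.4 CPM to 49.6 to 56.0 CPM (0.70 ± 0.13; adjusted p = 0.00191). In the TAK1 complex of 4 genes (50% called), Map3k7 was the member called lower. Tab3, an adaptor that binds ubiquitin chains, was higher by 0.39 ± 0.10 (adjusted p = 0.0113, and 0.0753 with the line as a random block), a call that also ended without either shChd1 library. Tab1 and Tab2 were not called. Among 12 tested kinases and IKK subunits below TAK1, 2 were higher, 1 lower and 9 not called (25% called, below the 44.8% of all tested genes). The IKK scaffold Ikbkg (NEMO) fell from 61.7 and 74.0 CPM to 30.2, 31.6, 30.7 and 38.3 CPM (-1.05 ± 0.13; adjusted p = 0.000213). The IKK kinase Chuk rose by 0.54 ± 0.11 and the p38 kinase Mapk13 by 1.21 ± 0.20, the latter from 24.3 and 18.4 CPM to between 47.5 and 50.8 CPM, a level inside the range of the controls (32.7 to 58.0 CPM).

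Of the 10 NF-kB subunits and inhibitors, 2 were higher and 5 lower (70% called, against 44.8% of all tested genes), with a median of -0.46. Bcl3, an atypical IkB protein, fell from 59.9 and 59.9 CPM to 5.22, 6.01, 6.77 and 4.58 CPM (-3.40 ± 0.25; adjusted p = 3.31e-05), and the controls had 38.7 to 59.8 CPM. Nfkb1, the p50 precursor, fell by 0.93 ± 0.15. The subunits Rela (0.51 ± 0.12; adjusted p = 0.00653, and 0.0583 with the line as a random block) and Nfkb2 (0.57 ± 0.15; adjusted p = 0.0106) were higher. Both calls ended when shChd1 replicate 2 was left out, and that of Nfkb2 also without replicate 1.

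Genes that NF-kB induces fell broadly, with exceptions. Of 33 tested targets, 19 were lower, 4 higher and 10 not called (69.7% called, against 44.8% of all tested genes). Their median was -1.55, against 0.01 over all tested genes. With the line as a random block 15 were lower and 2 higher. The same genes had a median of -1.24 in shMap3k7 against the clone 4 control and -1.07 against the other 2 controls. The interleukin Il6 stood at 17.5 and 15.7 CPM in shChd1, 11.5 to 23.7 CPM in the controls, and 0.221, 0.138, 0.208 and 0 CPM in shDouble (-6.75 ± 0.49; adjusted p = 3.14e-05). The neutrophil chemokine Cxcl2 had 19.8 and 19.2 CPM against 0.0442, 0.138, 0.364 and 0.0594 CPM (-6.96 ± 0.55; adjusted p = 3.65e-05). Both were at or near the level of 3 counts in each shDouble library. Complement factor C3 fell from 1229 and 1378 CPM to 40.4, 62.3, 85.0 and 57.7 CPM (-4.41 ± 0.44), with 456 to 1214 CPM in the controls. Tnfaip2, an actin-binding protein induced by tumour necrosis factor, fell by 5.33 ± 0.60 on the log2 scale, and Nos2, the inducible nitric oxide synthase, by 8.26 ± 0.91, with 131 and 101 CPM against at most 0.677 CPM (adjusted p = 0.000141, and 0.0503 with the line as a random block). Lcn2, an iron-binding antimicrobial protein chosen after its values were seen, had 2181 and 2221 CPM in shChd1 and 0.884, 1.79, 10.7 and 1.96 CPM in shDouble (-9.18 ± 1.07; adjusted p = 0.000183).

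The 4 NF-kB targets that rose were Plau, Ptgs2, Bcl2l1 and Ccl2, of which the latter 3 are named outside the rule. Ptgs2, the inducible cyclooxygenase, stood at 1248, 1003, 1379 and 1120 CPM in shDouble and 194 and 142 CPM in shChd1 (2.82 ± 0.36; adjusted p = 0.000261), and at 322 to 885 CPM in the controls. Plau, the urokinase activator of plasminogen, had 254 to 311 CPM against 89.0 and 81.0 CPM (1.68 ± 0.19). Its controls had 238, 159 and 259 CPM, so shChd1 was below and shDouble close to them. Bcl2l1, an inhibitor of apoptosis (0.78 ± 0.18, and 0.111 as the adjusted p with the line as a random block), and the monocyte chemokine Ccl2 (3.02 ± 0.98, and 0.95 as that p) lost their calls there. For Ccl2 the other 2 controls, at 18.8 and 37.1 CPM, lay above every shDouble library (6.23, 5.05, 12.4 and 1.90 CPM), so against them it was lower; shChd1 had 1.18 and 0.379 CPM. For Bcl2l1 the controls (103 to 163 CPM) overlapped shDouble (131 to 168 CPM). Each lost its call too without shChd1 replicate 2, and Ccl2 also without shDouble replicate 3 or shChd1 replicate 1.

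The promoters of the 2 falling cytokine genes show a sequence of the kind NF-kB binds, and are printed for that reason. The windows are the 250 bases before the start of the RefSeq transcript on GRCm38.p6, read 5′ to 3′ on the strand of the gene, with matches to the NF-kB consensus on either strand in capitals.
Il6 (chr5:30012864-30013113, plus strand): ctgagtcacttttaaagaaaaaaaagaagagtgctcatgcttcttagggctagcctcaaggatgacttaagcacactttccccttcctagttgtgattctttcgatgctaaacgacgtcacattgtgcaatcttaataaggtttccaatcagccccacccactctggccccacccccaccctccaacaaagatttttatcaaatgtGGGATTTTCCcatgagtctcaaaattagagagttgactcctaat
Cxcl2 (chr5:90903649-90903898, plus strand): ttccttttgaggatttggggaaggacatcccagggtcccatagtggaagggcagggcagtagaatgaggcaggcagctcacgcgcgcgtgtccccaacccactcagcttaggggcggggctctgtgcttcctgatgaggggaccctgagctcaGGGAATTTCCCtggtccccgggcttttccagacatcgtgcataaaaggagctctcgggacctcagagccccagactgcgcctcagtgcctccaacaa
The match lies 44 to 35 bases before the start in Il6 and 97 to 87 bases before it in Cxcl2, where 2 overlapping matches form 1 block. In windows of 300 bases (250 before to 50 after the start), which RefSeq gave for 10260 of the tested genes, the consensus was found in 12.3%. Of the NF-kB targets with a window, 11 of 25 (44%) had it, among them 7 of the 15 that fell (46.7%). Of all genes called lower 14.3% had it, and of those called higher 11.8%. A match is a description of the letters and was not tested as a binding site.

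Genes of the interferon response fell in shDouble. Of 31 tested members of that list, 27 were lower, 0 higher and 4 not called (87.1% called, against 44.8% of all tested genes). Their median was -2.18, and 18 were called lower with the line as a random block. The membrane protein Ifitm3, which blocks entry of viruses, stood at 84.1, 96.1, 81.9 and 97.0 CPM against 482 and 498 CPM in shChd1 (-2.45 ± 0.21; adjusted p = 5.12e-05). The controls had 221, 434 and 256 CPM, the highest of them clone 4. Bst2 (tetherin, which holds back budding viruses) fell from 28.7 and 22.4 CPM to 4.41 to 5.82 CPM (-2.34 ± 0.22). Its controls had 8.74 to 14.8 CPM, so the shChd1 libraries lay above them and shDouble below. The ubiquitin ligase Herc6 (-2.15 ± 0.23), the exonuclease Isg20 (-1.46 ± 0.17), the guanylate-binding protein Gbp7 (-4.30 ± 0.54) and Trim30a (-5.73 ± 0.68), a tripartite motif protein, followed. In shMap3k7 the list had a median of -1.62 against the clone 4 control and -0.68 against the other 2 controls.

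Early response and AP-1 genes were more often higher. Of 23, 12 were higher, 3 lower and 8 not called (65.2% called, against 44.8% of all tested genes), with a median of 0.57. The AP-1 subunit Fosb stood at 65.4, 85.1, 48.5 and 40.4 CPM against 3.30 and 1.39 CPM (4.67 ± 0.60; adjusted p = 0.000286), with 9.50 to 31.3 CPM in the controls. The phosphatase of ERK Dusp5 rose by 1.86 ± 0.23, Klf4, a Krüppel-like factor of epithelia, by 1.35 ± 0.19 and Myc by 1.39 ± 0.19. Klf4 overlapped the controls (146 to 232 CPM in shDouble, 137 to 159 CPM in the controls), and shChd1 lay below them (74.7 and 73.4 CPM). Myc had 239, 197, 293 and 277 CPM in shDouble and 102 and 90.5 CPM in shChd1, and the controls, with 223, 153 and 217 CPM, overlapped shDouble but not shChd1. Fosl1 rose by 1.03 ± 0.16 and likewise overlapped the controls (65.6 to 97.5 CPM in shDouble, 67.5 to 77.6 CPM in the controls). The 3 that fell were the AP-1 subunit Fosl2 (-0.65 ± 0.14) and the early growth response factors Egr1 (-0.83 ± 0.23) and Egr2 (-1.57 ± 0.52, adjusted p = 0.0321, and 0.203 with the line as a random block). The call of Egr1 ended without shChd1 replicate 2, and that of Egr2 without either shChd1 library or shDouble replicate 1, 2 or 3. In shMap3k7 the median of the list was 0.20 against the clone 4 control and 0.09 against the other 2 controls.

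The TGF-beta signalling receptors Tgfbr1 and Tgfbr2, which also act through TAK1, and the co-receptor Tgfbr3 fell. Of 26 tested TGF-beta and BMP genes, 12 were lower and 5 higher (65.4% called, against 44.8% of all tested genes). The co-receptor Tgfbr3 stood at 42.9 and 46.8 CPM in shChd1, 16.5 to 29.0 CPM in the controls and 0.929, 0.597, 0.729 and 0.713 CPM in shDouble (-5.90 ± 0.33; adjusted p = 7.74e-06). The signalling receptors Tgfbr2 (139, 152, 139 and 138 against 334 and 339 CPM; -1.24 ± 0.10; adjusted p = 4.19e-05) and Tgfbr1 (135 to 146 against 507 and 340 CPM; -1.59 ± 0.18) were below every control as well. Among the ligands, Tgfb2 fell by 3.16 ± 0.40 at levels of 3.48 CPM and below, and Ltbp2, a protein of microfibrils related to the latent TGF-beta binders, fell from 1579 and 1447 CPM to 87.2 to 129 CPM (-3.74 ± 0.39). Inhba, the activin A subunit, rose from 131 and 89.1 CPM to 563, 504, 672 and 652 CPM (2.44 ± 0.21; adjusted p = 5.34e-05), above the controls at 241 to 358 CPM.

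Most fibrillar and related collagens were lower in shDouble. Of 11 tested, 8 were lower, 0 higher and 3 not called (72.7% called, against 44.8% of all tested genes). Their median was -3.69, and 5 were lower with the line as a random block. In shMap3k7 the median was -4.18 against the clone 4 control and -4.53 against the other 2 controls. Col5a1, a type V collagen chain, stood at 0.265, 0.321, 2.08 and 0.535 CPM against 147 and 105 CPM, and 81.4 to 150 CPM in the controls (-7.32 ± 0.56; adjusted p = 3.42e-05). The type VI chain Col6a1 had 2.26, 3.58, 1.98 and 0.357 CPM against 218 and 257 CPM (-6.82 ± 0.60; adjusted p = 5.46e-05). Col6a2 fell by 6.90 ± 0.82 (adjusted p = 0.000203, and 0.0816 with the line as a random block). Col16a1 fell less in clone 1 (12.8 and 12.9 CPM) than in clone 7 (2.13 and 2.91 CPM), from 63.6 and 80.4 CPM. Col5a3 fell by 2.92 ± 0.95 (adjusted p = 0.0291), a call that ended without either shChd1 library or without shDouble replicate 1 or 4.

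Basement membrane genes moved both ways. Of 19, 9 were higher and 5 lower (73.7% called, against 44.8% of all tested genes). The rises included laminin chains of epithelia and 4 chains of type IV collagen. The laminin chain Lama3 rose by 3.11 ± 0.32, from 13.7 and 10.4 CPM to 89.8 to 128 CPM, and the chain Lamb3 by 1.04 ± 0.13, from 70.3 and 69.4 CPM to 135 to 157 CPM. Both overlapped the controls (51.6 to 108 CPM for Lama3, 108 to 142 CPM for Lamb3). Col4a4 had 12.8, 11.7, 6.30 and 7.55 CPM against 0.311 and 0.443 CPM (4.65 ± 0.45), and Col4a3 had 296 counts against 1 (ratio 117, interval 20.9 to 4650; adjusted p = 0.000181). The more abundant chains Col4a1 (192 to 248 against 30.1 and 19.7 CPM; 3.06 ± 0.49) and Col4a2 (183 to 374 against 44.0 and 27.3 CPM; 2.86 ± 0.55), named outside the rule, rose with them. Lama4, a laminin chain of vessels and mesenchyme, fell from 151 and 209 CPM to 7.91, 7.53, 2.29 and 2.02 CPM (-5.16 ± 0.57; adjusted p = 0.000139).

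Other matrix proteins and their enzymes fell more often than they rose. Of 22 tested, 15 were lower and 2 higher (77.3% called, against 44.8% of all tested genes), with a median of -2.10. Spp1 (osteopontin) stood at 16.4, 26.9, 35.3 and 50.2 CPM against 488 and 587 CPM (-4.07 ± 0.43). Lox, which crosslinks collagen, fell from 395 and 304 CPM to 11.01 and 13.6 CPM in clone 1 and 1.98 and 0.891 CPM in clone 7 (-5.64 ± 0.77; adjusted p = 0.000395). The proteoglycan Vcan (-1.95 ± 0.27), the collagen prolyl hydroxylase P4ha1 (-1.83 ± 0.20) and the matrix Gla protein Mgp (-6.64 ± 0.88) also fell. Thbs1 (thrombospondin 1) rose instead, from 642 and 571 CPM to 3178, 3539, 2884 and 3341 CPM (2.41 ± 0.29; adjusted p = 0.000196), above the controls at 655 to 1555 CPM.

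Of 23 tested mesenchymal genes, 12 were lower and 2 higher (60.9% called, against 44.8% of all tested genes), with a median of -0.99. The repressors of E-cadherin Zeb1 and Zeb2 were among them. Zeb1 stood at 59.3 and 51.4 CPM in shChd1, 20.8 to 50.1 CPM in the controls and 0.177, 0.184, 1.302 and 0.178 CPM in shDouble (-6.92 ± 0.62; adjusted p = 5.83e-05), and Zeb2 at 58.8 and 63.4 against 2.85 to 5.41 CPM (-4.04 ± 0.43). The cytoskeletal protein Dpysl3 fell from 374 and 203 CPM to at most 0.707 CPM (-9.90 ± 0.58; adjusted p = 7.74e-06), and Pdgfrb, a PDGF receptor, from 21.8 and 18.3 CPM to 2 counts in all (ratio 807, interval 223 to 6680). The transcription factors Tcf4 (-1.41 ± 0.15) and Twist2 (-4.78 ± 0.56) and the calcium-binding protein S100a4 (-2.50 ± 0.28) fell too. Vim (vimentin), named outside the rule, fell from 907 and 936 CPM to 405, 335, 298 and 246 CPM (-1.52 ± 0.27; adjusted p = 0.00143).

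Fibroblast markers fell as well, though most of their sum in shChd1 was the collagen Col3a1 named above (91.0 and 87.2 CPM). The 9 markers summed to 5.47 to 9.27 CPM in shDouble and 127.5 to 134.3 CPM in shChd1. Their sums in the controls were 100.2, 49.51 and 26.45 CPM. Of the 5 tested, 4 were lower (80% called, against 44.8% of all tested genes), and 3 were with the line as a random block. The 4 include Pdgfra (3.92 to 5.46 against 10.0 and 11.4 CPM, -1.15 ± 0.20) and Col3a1, which lost its call with that block. Among their defining members Lum had 0 counts in all 11 libraries, Thy1 had 1 count in all and Col1a2 had 10 counts in each group. In bulk RNA, fewer cells of a type and less RNA per cell cannot be told apart, and the part of other cells in these results was not tested. Endothelial markers summed to 0.951 to 1.68 CPM in shDouble and 1.26 to 1.87 CPM in shChd1, and immune markers to 2.39 to 4.22 and 1.62 to 1.77 CPM. Cd3e had 0 counts and Ptprc 3 counts in the 6 libraries. Of the immune markers Csf1r was higher, with 140 counts against 1 (adjusted p = 0.00514, and 0.0621 with the line as a random block; the call also ended without shChd1 replicate 2). Neuroendocrine markers summed to 41.6 to 127.8 against 488.8 to 504.7 CPM, nearly all of it the adhesion molecule Ncam1 (106, 128, 41.1 and 47.5 against 501 and 486 CPM), with Chga at 0. Smooth muscle markers summed to 239.7 to 290.9 against 77.95 to 116.9 CPM, nearly all of it the cytoskeletal gene Smtn.

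Epithelial genes were higher in shDouble. Of 43 tested genes of junctions and epithelial identity, 36 were higher, 4 lower and 3 not called, with a median of 1.67. That is 93% called, against 44.8% of all tested genes. With the line as a random block 25 were higher and 4 lower. Cdh1 (E-cadherin) stood at 738, 772, 728 and 798 CPM against 198 and 157 CPM (2.10 ± 0.23; adjusted p = 0.000126), and Epcam at 520, 593, 587 and 683 CPM against 167 and 144 CPM (1.94 ± 0.21; adjusted p = 0.000131). For both genes shDouble lay above every control and shChd1 below every control: the controls had 425, 248 and 459 CPM of Cdh1 and 373, 246 and 431 CPM of Epcam, the clone 4 control being the lowest of the 3. Esrp1, the splicing factor of epithelia, rose by 2.22 ± 0.23 and the desmosomal cadherin Dsg2 by 1.36 ± 0.14. The 4 that fell were Ehf, Tjp1, Ctnnb1 and Tjp3, the last 3 named outside the rule. Ehf, an ETS factor of epithelia, stood at 11.4, 22.6, 12.4 and 13.4 CPM against 515 and 566 CPM (-5.17 ± 0.39; adjusted p = 3.31e-05) and 127 to 278 CPM in the controls. Tjp1 (-0.61 ± 0.09) and Ctnnb1 (-0.61 ± 0.10), which encode ZO-1 and beta-catenin, fell little, and Tjp3, a further tight junction protein, by 1.40 ± 0.41, a call that ended without shChd1 replicate 1. The list's median depended on the control: in shMap3k7 it was 1.15 against the clone 4 control and 0.19 against the other 2.

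Several keratins rose, while Krt5 was not called. Of 10 tested luminal keratins and markers, 6 were higher and 2 lower (median 1.68), and of 12 basal ones 6 were higher and 2 lower (median 1.56). These are 80% and 66.7% called, against 44.8% of all tested genes. The partners Krt8 (3670, 3707, 3843 and 3941 against 854 and 785 CPM; 2.21 ± 0.27; adjusted p = 0.000216) and Krt18 (2885, 2749, 3102 and 2826 against 487 and 387 CPM; 2.73 ± 0.37; adjusted p = 0.000351) were above every control in shDouble, and the clone 4 control was the lowest control for both (1324 and 631 CPM). The simple-epithelial keratins Krt7 (1.44 ± 0.18) and Krt19 (2.40 ± 0.43) followed, but both overlapped the controls. Krt7 had 1359 to 1591 CPM in shDouble and 992 to 1574 CPM in the controls, and Krt19 67.1 to 121 and 35.4 to 91.2 CPM. The stem cell antigen Ly6a fell by 1.21 ± 0.28. In the basal list, Krt14 had 2096, 2406, 1643 and 2234 CPM against 564 and 545 CPM (1.92 ± 0.38), with 3906, 1372 and 1542 CPM in the controls. The hyaluronan receptor Cd44 (1.84 ± 0.18) and the integrin Itgb4 (1.27 ± 0.20) were higher. Itgb4 overlapped the controls (651 to 856 CPM in shDouble, 598 to 840 CPM in the controls). Trp63, the factor that maintains basal cells, fell from 18.5 and 20.9 CPM to 0.84, 2.34, 0.521 and 1.37 CPM (-3.95 ± 0.53; adjusted p = 0.000336), below the controls at 5.17 to 12.1 CPM. Itga6 was lower by 1.07 ± 0.31 (adjusted p = 0.0169, and 0.106 with the line as a random block). Krt6a rose by 4.51 ± 1.27 (adjusted p = 0.0152, and 0.291 with that block), although 1 control had 1497 CPM and RSEM divides its reads with Krt6b; both calls ended without shChd1 replicate 2. In shMap3k7 the median of the luminal list was 0.89 against the clone 4 control and 0.08 against the other 2, and that of the basal list 0.72 and -0.49.

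The promoters of Epcam and Krt8 are printed because both hold the E-box CACCTG, the kind of site that ZEB repressors bind and whose reverse complement is CAGGTG. Windows and strands are as above, with the E-boxes in capitals.
Epcam (chr17:87635729-87635978, plus strand): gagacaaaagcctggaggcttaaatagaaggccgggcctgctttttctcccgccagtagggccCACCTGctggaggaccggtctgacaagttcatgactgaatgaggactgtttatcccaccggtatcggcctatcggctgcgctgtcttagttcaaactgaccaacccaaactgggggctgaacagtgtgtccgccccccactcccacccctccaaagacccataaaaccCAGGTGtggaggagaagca
Krt8 (chr15:102004343-102004592, minus strand): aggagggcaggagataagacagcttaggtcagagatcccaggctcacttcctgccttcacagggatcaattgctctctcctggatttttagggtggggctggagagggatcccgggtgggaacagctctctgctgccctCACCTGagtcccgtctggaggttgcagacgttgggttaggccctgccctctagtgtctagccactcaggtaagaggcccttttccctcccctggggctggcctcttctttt
Epcam has the motif 187 to 182 bases and, on the other strand, 19 to 14 bases before the start, and Krt8 has it 111 to 106 bases before it. The gene record of Krt8 (ENSMUSG00000049382.10, minus strand) begins at 102004482, before that RefSeq start, so the E-box of Krt8 lies inside the annotated gene. Krt18 holds the motif 214 to 209 bases before its start. Of the 10260 windows of tested genes, 21.1% held the motif on either strand. Of the epithelial genes with a window 14 of 24 (58.3%) held it, among them 13 of the 19 that rose (68.4%), and of the luminal list 5 of 5. Of all genes called higher 24.4% held it, and of those called lower 19.8%. Binding was not tested.

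**Figure D3:**
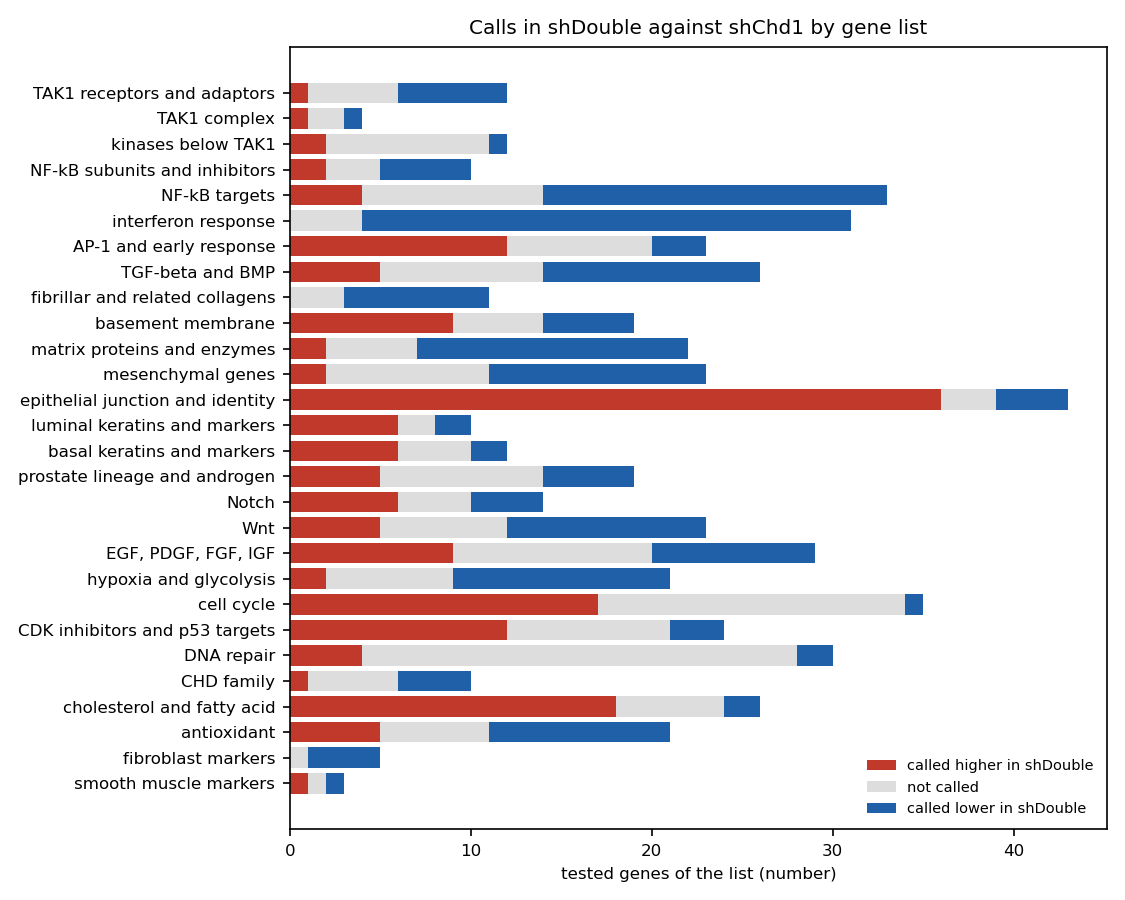
Each bar is a gene list, its length the number of genes tested, split into genes called higher in shDouble (red), not called (grey) and called lower (blue). Epithelial junction genes are mostly red (36 of 43), and interferon response genes (27 of 31) and fibrillar collagens (8 of 11) mostly blue. Over all tested genes 22.6% were called higher and 22.2% lower.

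Of 14 tested Notch genes, 6 were higher, among them 3 ligands, and 4 lower (71.4% called, against 44.8% of all tested genes). The ligand Jag1 stood at 436, 389, 347 and 397 CPM against 50.5 and 35.5 CPM, and 95.7 to 119 CPM in the controls (3.19 ± 0.19; adjusted p = 1.04e-05). The ligands Jag2 (1.15 ± 0.18) and Dll1 (3.05 ± 0.57; adjusted p = 0.00191, and 0.135 with the line as a random block) were higher than in shChd1 but not than in every control. Jag2 had 118 to 126 CPM in shDouble and 83.0, 91.1 and 132 CPM in the controls, and Dll1 had 27.3 to 58.7 CPM and 46.7, 12.6 and 41.2 CPM. Among the targets, Nrarp had 43.0, 35.1, 47.8 and 49.3 CPM against 4.85 and 3.29 CPM (3.42 ± 0.32; adjusted p = 7.17e-05), Hes1 rose by 1.57 ± 0.20, and Hey2 had 111 counts against 1 (ratio 44, interval 7.74 to 1754). The 4 lower genes, named after their values were seen, were the receptors Notch1 (-0.53) and Notch2 (-0.69), the coactivator Maml2 (-0.82) and the target Hey1 (-4.07), and with the line as a random block 1 gene of the list was lower.

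Of 23 tested Wnt genes, 5 were higher and 11 lower (69.6% called, against 44.8% of all tested genes), with a median of -0.76. The ligand Wnt7a had 28.0, 18.9, 32.3 and 20.7 CPM against 0.187 and 0.0632 CPM (7.56 ± 1.13; adjusted p = 0.000601, and 0.512 with the line as a random block), with 2.44 CPM in the clone 4 control and 14.04 and 21.7 CPM in the others. The enhancer of Wnt signals Rspo3 fell from 19.2 and 22.9 CPM to 0.133, 0.275, 0.156 and 0 CPM (-7.09 ± 0.51; adjusted p = 3.91e-05), below the controls at 7.43 to 16.5 CPM. The target and inhibitor Axin2 fell by 4.42 ± 0.62, the receptor Fzd8 by 1.20 ± 0.22 and the co-receptor Lrp6 by 0.59 ± 0.09. In the 29 tested EGF, PDGF, FGF and IGF genes, 9 were higher and 9 lower (62.1% called, against the same 44.8%). Pdgfb, a PDGF ligand, had 120, 110, 124 and 106 CPM against 17.7 and 8.60 CPM (3.12 ± 0.39; adjusted p = 0.000233), above the controls at 29.7 to 75.6 CPM. The EGF receptor ligands Tgfa (1.87 ± 0.27) and Ereg (1.56 ± 0.28) and the receptor Erbb3 (2.58 ± 0.41) rose. Igfbp5, which binds IGF, fell from 90.7 and 49.3 CPM to 1.72 and 2.52 CPM in clone 1 and 0.0521 and 0 CPM in clone 7 (-5.95 ± 1.14), with 17.7, 2.13 and 0.99 CPM in the controls, which overlap the clone 1 values.

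Hypoxia and glycolysis genes fell, 12 lower and 2 higher of 21 tested, with a median of -0.73. That is 66.7% called, against 44.8% of all tested genes. Bnip3, a mitophagy receptor, stood at 11.01, 13.1, 17.9 and 15.9 CPM against 153 and 162 CPM (-3.45 ± 0.54; adjusted p = 0.000745), with 15.5, 111 and 69.8 CPM in the controls. Egln3, an oxygen-sensing hydroxylase (-5.74 ± 0.87), and the glycolytic genes Aldoc (-3.39 ± 0.40), Pfkfb3 (-2.33 ± 0.31), Pdk1 (-2.12 ± 0.31) and Pgk1 (-0.94 ± 0.19) followed. For Bnip3, Aldoc, Pfkfb3, Pdk1 and Egln3 the clone 4 control was the highest of the controls.

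Of 35 cell cycle genes, 17 were higher, 1 lower and 17 not called (51.4% called, against 44.8% of all tested genes), with a median of 0.32, and 2 changed at least 2-fold. In shMap3k7 the median was -0.02 against the clone 4 control and 0.21 against the other 2 controls. The flap endonuclease Fen1 had 136, 141, 130 and 139 CPM against 67.5 and 76.8 CPM (0.92 ± 0.09; adjusted p = 8.78e-05), and the kinase Cdk1 183, 187, 241 and 246 CPM against 106 and 118 CPM (0.93 ± 0.15). The mitotic kinesin Kif11 (0.67 ± 0.13), the mitotic kinase Plk1 (0.58 ± 0.11) and the helicase subunit Mcm3 (0.55 ± 0.11) rose. Plk1 overlapped the controls (146 to 176 CPM in shDouble, 155 to 185 CPM in the controls), and shChd1 lay below them (110 and 104 CPM). The mitotic kinase Aurkb fell by 0.80 ± 0.11, to below every control. Among 24 CDK inhibitors and p53 targets, 12 were higher and 3 lower (62.5% called, against 44.8% of all tested genes). With the line as a random block 5 were higher and 3 lower. The list also holds Mtap, which is neither a CDK inhibitor nor a p53 target. Its rises include the neighbours Mtap, Cdkn2b and Cdkn2a, whose mRNA clone 4 lacked with and without a Chd1 hairpin. Beside these and Gdf15, the kinase Plk2 (1.25 ± 0.15), the desmosomal protein Perp (1.57 ± 0.26), the death-promoting Pmaip1 (1.83 ± 0.34) and the p53 inhibitor Mdm2 (1.10 ± 0.23) rose. The death receptor Fas fell from 24.3 and 23.7 CPM to 1.81, 2.57, 3.64 and 0.773 CPM (-3.44 ± 0.51; adjusted p = 0.000595). Of 30 DNA repair genes 4 were higher and 2 lower, a share of 20% against 44.8% of all genes, with the Fanconi anaemia gene Fanca higher by 0.66 ± 0.11 and Prkdc, the DNA-dependent protein kinase, at -0.50 ± 0.13, a call that ended without shChd1 replicate 2.

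In the CHD family of 10, Chd1 was the single member called higher and 4 were lower (50% called, near the 44.8% of all tested genes). Chd6 fell by 0.76 ± 0.12, Chd3 by 0.87 ± 0.16 (adjusted p = 0.00195, and 0.0572 with the line as a random block) and Chd2 by 0.42 ± 0.14 (adjusted p = 0.0338, and 0.289 with that block). The fourth, Chd5, was at -1.43 (adjusted p = 0.0393, and 0.242 with that block). The call of Chd2 also ended without shDouble replicate 1 or either shChd1 library. Enzymes of cholesterol and fatty acid synthesis were higher in 18 of 26 and lower in 2 (76.9% called), by less than 2-fold each. With the line as a random block 6 stayed higher. Fasn, the fatty acid synthase, had 1610, 1600, 1475 and 1574 CPM against 998 and 875 CPM (0.74 ± 0.08; adjusted p = 0.000157). Fdft1, an enzyme of sterol synthesis, rose by 0.97 ± 0.14, and the desaturase Scd1 fell by 0.87 ± 0.19, a call that ended without shChd1 replicate 1. Of 21 antioxidant genes, 5 were higher and 10 lower (71.4% called). The glutathione transferase Gstm1 (-3.42 ± 0.42), the aldehyde dehydrogenase Aldh3a1 (-3.23 ± 0.51) and the metallothioneins Mt1 (-1.71 ± 0.34) and Mt2 (-2.38 ± 0.43) fell, and the steroid dehydrogenase Akr1c18 had 2 counts against 277 (ratio 349, interval 95.8 to 2899; adjusted p = 0.000232, and 0.0628 with the line as a random block).

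Genes of prostate lineage and androgen response moved in no common direction, 5 higher and 5 lower of 19 tested. That is 52.6% called, near the 44.8% of all tested genes. The protease Tmprss2 had 27.5, 32.2, 23.6 and 26.8 CPM against 1.56 and 1.01 CPM (4.41 ± 0.84; adjusted p = 0.00206), with 0.675 CPM in the clone 4 control and 11.2 and 6.87 CPM in the others. Abcc4, a transporter (1.97 ± 0.22), and the kinase Sgk1 (1.58 ± 0.26) rose. Steap4, a metalloreductase, stood at 32.2 and 57.7 CPM in shChd1 and 13.4 to 25.8 CPM in the controls and at most at 0.364 CPM in shDouble (-8.29 ± 0.55; adjusted p = 1.55e-05).

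**Figure D4:**
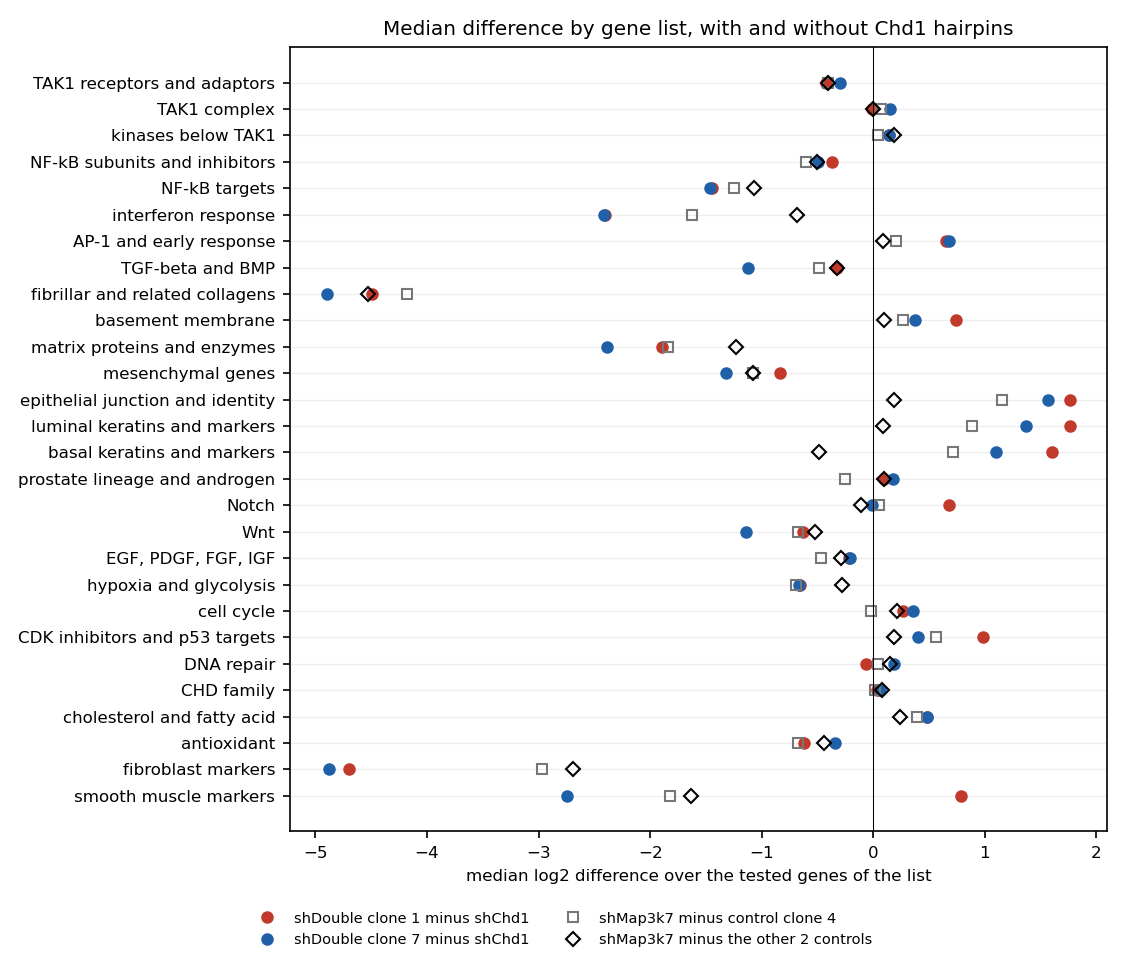
Each row is a gene list and each symbol the median log2 difference over its tested genes: shDouble clone 1 (red) and clone 7 (blue) minus shChd1, and shMap3k7 minus the clone 4 control (grey squares) or minus the other 2 controls (black diamonds). For fibrillar collagens the 4 symbols lie between -4.18 and -4.90, while for epithelial genes they spread (1.76, 1.56, 1.15 and 0.19). The clone medians are of fold changes fitted by edgeR, and the shMap3k7 medians are of differences of log2 CPM.

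Set side by side, the lists differ in how far the libraries without Chd1 hairpins show the same size of difference. NF-kB targets had medians of -1.55 here, and -1.24 and -1.07 in shMap3k7 against the clone 4 control and the other 2 controls, so their median shrank somewhat. In the same order, fibrillar collagens (-3.69, -4.18 and -4.53) and mesenchymal genes (-0.99, -1.08 and -1.08) had medians of similar size whichever control was used. Medians shrank further for interferon response genes (-2.18, -1.62 and -0.68), epithelial junction genes (1.67, 1.15 and 0.19) and hypoxia and glycolysis genes (-0.73, -0.70 and -0.28). Those of luminal (1.68, 0.89 and 0.08) and basal keratins (1.56, 0.72 and -0.49) did too, and for the basal list the sign turned. Not every list is given here. The first median of each list is of fold changes fitted by edgeR. The shMap3k7 medians are of differences of log2 CPM, which are drawn towards 0 at low counts. All these medians are descriptions and the differences between them were not tested.

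Calls were unevenly spread over the chromosomes. On chromosome 19, 46.2% of 468 tested genes were higher in shDouble, against 21.8% of genes elsewhere, and the median was 0.40 (0.53 in clone 1, 0.32 in clone 7). In single libraries the median difference from the shChd1 mean on this chromosome was 0.51 and 0.53 in clone 1 and 0.35 and 0.31 in clone 7, 0.48 and 0.30 in the shMap3k7 libraries, and 0.02 to 0.06 in the controls. On chromosome 7, 29.5% of 1119 genes were lower against 21.6% elsewhere, with a median of -0.38 in clone 7 and -0.09 in clone 1. Chromosome 8 was raised in clone 7 (0.22) and not in clone 1 (0.04), and chromosome 4 in clone 1 (0.24) more than in clone 7 (0.04). On chromosome 10, 38.8% were higher against 21.8% elsewhere, but the other controls also lay above shChd1, at 0.26 and 0.31, with the clone 4 control at 0.10. Chuk, Rela, Nfkb2, Fosl1, Dusp5, Fen1 and Kif11, all higher in shDouble, lie on chromosome 19, as do Fas and Scd1, which were lower, and the part of the chromosome in their differences was not tested.

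**Figure D5:**
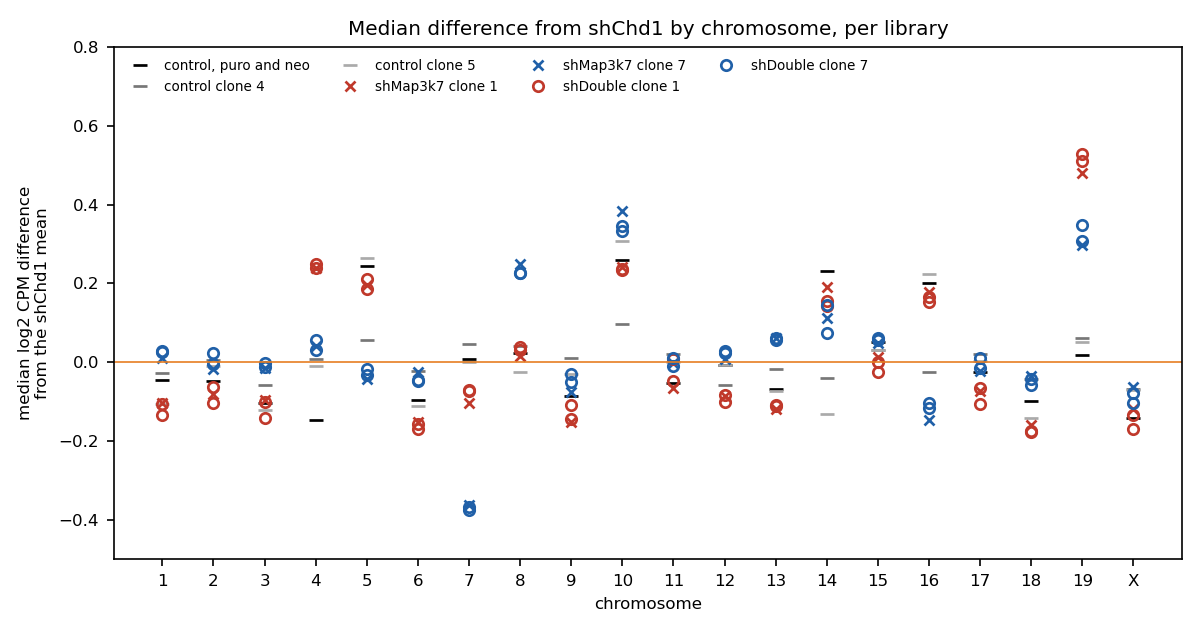
For each chromosome and library, the y axis gives the median over its tested genes of log2 CPM minus the shChd1 mean, with shDouble as circles, shMap3k7 as crosses and controls as bars, clone 1 in red and clone 7 in blue. On chromosome 19 all libraries of Map3k7 clones lie above the controls, and on chromosome 7 the clone 7 libraries lie near -0.38.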

How the data were processed

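RNA sequencing of 11 WFU3 libraries was used. Per the submitters' processing notes, Bowtie2, RSEM 1.3.1, limma and GRCm38 were used. For their order, the annotation and the strand setting, the sources used here give nothing. The values are the expected counts per gene that the authors deposited, which RSEM divides between near-identical genes; they were rounded to whole numbers. The normalized table was not used. Library totals ran from 14132371 to 23163709. Reads carry no molecular identifiers, so intervals and floors cover counting error only.

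The test was edgeR 4.0.16 in R 4.3.3 (TMM scaling, filterByExpr with a minimum of 10 counts and a total of 15, 1 mean per group over all 11 libraries, quasi-likelihood F test, Benjamini-Hochberg adjustment over 14346 genes, called at an adjusted p of 0.05). Each ± is an approximate standard error, the absolute log2 fold change divided by the square root of the F statistic. limma 3.58.1 and DESeq2 1.42.0 gave alternatives, with lines as a random block in limma voom (correlation 0.631). On data simulated for shDouble against shChd1 over 14346 genes, 47 of 100 genes changed 2-fold and 78 of 100 changed 4-fold were called, with 3 false calls. The simulated libraries were drawn independently, without the lines that real libraries share. The false calls therefore do not measure the error that comes from shared clones. Genes named by rule were the 12 largest rises and falls among called, annotated genes with at least 5 CPM on average in the higher group and groups that did not overlap, the 4 smallest p-values each way, and up to 6 members a list by p. Groups at 0 are given as bounds from 3 counts over the group, and groups with 1 to 3 counts as a ratio with its 95% interval. The comparison, members and lists were chosen with earlier results of these data known. Date-like symbols could not be named. Promoter windows came from RefSeq. A few genes that the rule names are not reported here.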

Additional observations from a re-analysis of the deposited data

Results flagged for a closer look

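In 9 of 175 genes examined singly, 1 of the 4 shDouble libraries lay apart from the other 3 by Dixon's criterion, which chance gives in about 1 in 20 groups. Replicates 1, 2, 3 and 4 were the one apart in 2, 2, 3 and 2 of these genes. Replicate 1 was apart for Dpysl3 (0.7075 CPM, others 0.1041 to 0.1836) and Col4a1 (247.7 CPM, others 192.2 to 194.1). Replicate 2 was apart for Tgfbr2 (152.1 CPM, others 138.5 to 138.8) and Akr1c18 (0.0918 CPM, others 0). Replicate 3 was apart for Col5a1 (2.083 CPM, others 0.2653 to 0.5349), Zeb1 (1.302 CPM, others 0.1769 to 0.1836) and Lcn2 (10.73 CPM, others 0.8843 to 1.961). Replicate 4 was apart for Aurkb (45.88 CPM, others 39.43 to 40.09) and Fanca (39.64 CPM, others 34.56 to 35.2). In each of the 9 genes the library apart lay on the same side of both shChd1 libraries as the other 3.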

How the results depend on the processing

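With the line as a random block in limma voom, 3193 genes were called (1507 higher, 1686 lower, 1559 of them at least 2-fold), and with counts summed per line and group 1569 (651 higher, 918 lower, 1228 at least 2-fold). Tested against a 1.5-fold threshold, 2501 were called (940 higher, 1561 lower). Leaving out 1 library at a time gave 3649 to 6585 called, 1635 to 3339 higher, 2014 to 3259 lower and 2089 to 2883 at least 2-fold, the lowest count of calls being without shChd1 replicate 2. DESeq2 called 6615 genes, and the fit on the 6 libraries alone 6721. The interaction was called in 395 genes with DESeq2 and 31 with no filter on low counts, and clone 1 against clone 7 in 585 and 369. Mtap turned to -1.669 with the line as a random block. Beyond the leaving out of libraries and the sharing of lines, the cause of these shifts was not tested.

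With the Chd1 construct as a replicate block, 6144 of 14037 genes were called. The constructs did not pair the samples: deviations of libraries with the same construct correlated at 0.135, 0.0101 and 0.0584 between lines. The shChd1 group holds 2 libraries of 1 clone, and genes under about 3 counts a library (0.133 to 0.19 CPM) could not be ranked.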
